A study of Mus musculus with 9 samples.

Results

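Expression of 9 genes for hepatic steroid-converting dehydrogenases and reductases was examined in mouse liver, out of 24008 genes listed in the count table. They are Hsd3b2, Hsd3b3, Hsd3b5, Hsd3b7, Hsd11b1, Hsd17b2, Hsd17b6, Akr1c6 and Srd5a1. They were found by gene symbol, 1 row each, and all 9 had enough counts to be tested. They were selected on enzyme class together with their measured differences between these 3 groups. Their values, and their calls in the fit over all genes, are therefore given as a description only. No p-value was computed for the 9 genes as a set.

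The study sequenced RNA from whole liver of mice with nonalcoholic steatohepatitis (NASH), 3 libraries from 3 mice in each of 3 groups. All groups received a diet high in fat and carbohydrate. Mice were 8-week-old males on a C57BL/6J background at the start. The group that the labels call WT was taken as the floxed control mice of the study. F4MKO mice lack Irf4, an interferon regulatory factor, in skeletal muscle, where Myl-Cre drives the deletion of the floxed allele. F4MKO+FSTL1 mice carry the same deletion and were also given AAV8 with the myokine FSTL1 under the muscle creatine kinase promoter, injected into the gastrocnemius. By the study's methods the other groups received AAV-GFP, which the labels do not mention. Livers were taken 4 weeks after the virus. The methods give the length of the diet before the virus as 24 weeks in one place and 12 weeks in another. F4MKO compared with WT asks what loss of muscle Irf4 does to the liver, and F4MKO+FSTL1 compared with F4MKO asks what muscle FSTL1 adds to it. The comparisons share libraries, the F4MKO livers entering both, so they are not independent.

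Gene counts summed to 20656976 to 24322984 reads in a library. Levels are in CPM, a gene's reads relative to the TMM-scaled total of its library, and fold changes are on the log2 scale with their standard error (SE). A call means an adjusted p under 0.05 and a fold change above 1.5 in the fit over all genes. The Irf4 counts of the liver do not check a deletion made in muscle, but replicate 1 of F4MKO+FSTL1 had 10 where the other 8 libraries had 92 to 132. Hepatocyte markers were high in every library, with a summed level of 107688 to 124405 CPM in 8 of them. F4MKO replicate 1 stood apart, with 87702 CPM and the highest TMM factor, 1.17. Of the Y-linked genes Ddx3y, Eif2s3y, Kdm5d and Uty, mean levels in the 3 groups ran from 12.1 to 64.0 CPM. The mean level of Xist, the transcript of the inactive X chromosome, was at most 0.101 CPM in any group.

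Hydroxysteroid dehydrogenases and steroid reductases move hydrogen on and off single positions of the steroid skeleton. By doing so they switch hormones between active and inactive forms, and in the liver they prepare steroids for conjugation and excretion and shape bile acids. 3β-hydroxysteroid dehydrogenases act at the A ring. 11β-hydroxysteroid dehydrogenases set the local level of active glucocorticoid. 17β-hydroxysteroid dehydrogenases interconvert strong and weak sex steroids, and 5α-reductases reduce the double bond of testosterone, progesterone and glucocorticoids. Several of these enzymes are known to differ between male and female rodent liver, where growth hormone acting through STAT5 sets much of the difference.

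Hsd3b5, Hsd3b2 and Hsd3b3 lie in a cluster on the minus strand of chromosome 3 (GRCm38, GENCODE vM21), at 98618634 to 98630252, 98709255 to 98724543 and 98741523 to 98763127. The other members are spread over the genome. Hsd3b7 is on chromosome 7 at 127800604 to 127803802, plus strand, and Hsd11b1 is on chromosome 1 at 193221634 to 193264075, minus strand. Hsd17b2 is on chromosome 8 at 117701904 to 117759027, plus strand, and Hsd17b6 is on chromosome 10 at 127990936 to 128007611, minus strand. Akr1c6 and Srd5a1 are both on chromosome 13, at 4434306 to 4457877 on the plus strand and at 69573449 to 69611442 on the minus strand. Promoter windows from RefSeq (GRCm38.p6) matched 8 of the 9 symbols. The 250 bases before the start site are shown for the cluster on chromosome 3, whose members had the widest range of differences, and for Hsd3b7, the relative that lies elsewhere. Capitals in Hsd3b5 and Hsd3b3 mark the longest run of letters that these windows share, and capitals in Hsd3b7 mark a STAT5 motif.
Hsd3b5 (chr3:98645535-98645784, minus strand): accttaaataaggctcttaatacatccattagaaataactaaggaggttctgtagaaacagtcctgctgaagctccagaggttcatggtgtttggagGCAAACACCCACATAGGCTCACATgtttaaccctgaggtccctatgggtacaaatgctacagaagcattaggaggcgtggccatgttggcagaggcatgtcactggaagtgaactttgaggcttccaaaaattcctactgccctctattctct
Hsd3b3 (chr3:98763129-98763378, minus strand): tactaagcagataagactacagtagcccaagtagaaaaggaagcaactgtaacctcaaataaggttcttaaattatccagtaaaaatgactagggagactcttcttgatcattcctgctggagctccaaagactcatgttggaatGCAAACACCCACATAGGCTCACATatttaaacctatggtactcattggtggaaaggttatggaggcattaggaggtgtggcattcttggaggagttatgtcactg
Hsd3b2 (chr3:98724544-98724793, minus strand): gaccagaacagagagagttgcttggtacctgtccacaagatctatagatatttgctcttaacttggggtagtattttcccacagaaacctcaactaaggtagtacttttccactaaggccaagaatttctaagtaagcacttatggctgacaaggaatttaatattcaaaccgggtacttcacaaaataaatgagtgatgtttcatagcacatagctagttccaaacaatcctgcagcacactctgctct
Hsd3b7 (chr7:127800359-127800608, plus strand): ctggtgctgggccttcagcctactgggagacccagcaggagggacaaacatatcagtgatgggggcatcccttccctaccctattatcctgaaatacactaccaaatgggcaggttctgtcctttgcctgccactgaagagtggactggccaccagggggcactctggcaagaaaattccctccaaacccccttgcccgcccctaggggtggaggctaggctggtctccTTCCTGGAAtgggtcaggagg

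The run shared by Hsd3b5 and Hsd3b3 is 24 bases long. Searched on both strands in 32851 RefSeq promoters, it was found in 3 windows, all of them of Hsd3b5 or Hsd3b3. The RefSeq start of Hsd3b5 lies 15282 bases upstream of the start in GENCODE, and that of Hsd11b1 lies 21715 bases downstream of it. Windows of the 8 matched members were also searched on both strands for the STAT5 motif TTCNNNGAA, which 8.3% of the promoters hold and for the palindromic glucocorticoid response element, which 0.475% hold. The STAT5 motif was found in Hsd3b7 alone, 21 bases before its start site, and the other motif was found in none. An HNF1 motif, which 0.00913% of the promoters hold, was searched too and found in none. A match or its absence describes these letters in this window only.

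Across the 9 genes, mean levels were lowest in the F4MKO livers for all but Hsd17b6 and highest in the F4MKO+FSTL1 livers for 6 of them. In F4MKO compared with WT all 9 had a log2 fold change below 0, with a median of -0.39. Of all 14379 genes tested 49.4% were above 0, with a median of -0.003. None of the 9 was called at an adjusted p under 0.05 with a fold change above 1.5 by edgeR's quasi-likelihood test, DESeq2 called 2 (Hsd3b5 and Hsd11b1), and 6 had an unadjusted p under 0.05. Of all genes, 0.271% were called, 0.0695% as lower, by edgeR and 2.23% by DESeq2, and 16.9% had an unadjusted p under 0.05 in edgeR. When F4MKO+FSTL1 was compared with F4MKO, 8 of 9 were above 0 and the median was 0.37, against 51.4% above 0 and a median of 0.01 for all genes. An unadjusted p under 0.05 was found for 8, and for 35.3% of all genes. Hsd3b5, Hsd3b2 and Hsd11b1 were called as higher, beside 3.21% of all genes called in that direction and 14.4% called in either. DESeq2 called 3 members too, beside 13.2% of all genes. Without F4MKO replicate 1 edgeR called 5, with Hsd3b3 as higher and Hsd17b6 as lower in addition. Against WT, the F4MKO+FSTL1 livers had 6 members above 0 and 3 below, with a median of 0.12, where 49.9% of all genes were above 0. None was called by edgeR, where 0.00695% of all genes were, 2 had an unadjusted p under 0.05 (13.4% of all genes), and DESeq2 called 1 (Hsd17b6) beside 2% of all genes. Since the members were selected with these contrasts in view, nothing is read from these counts.

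**Figure D1:**
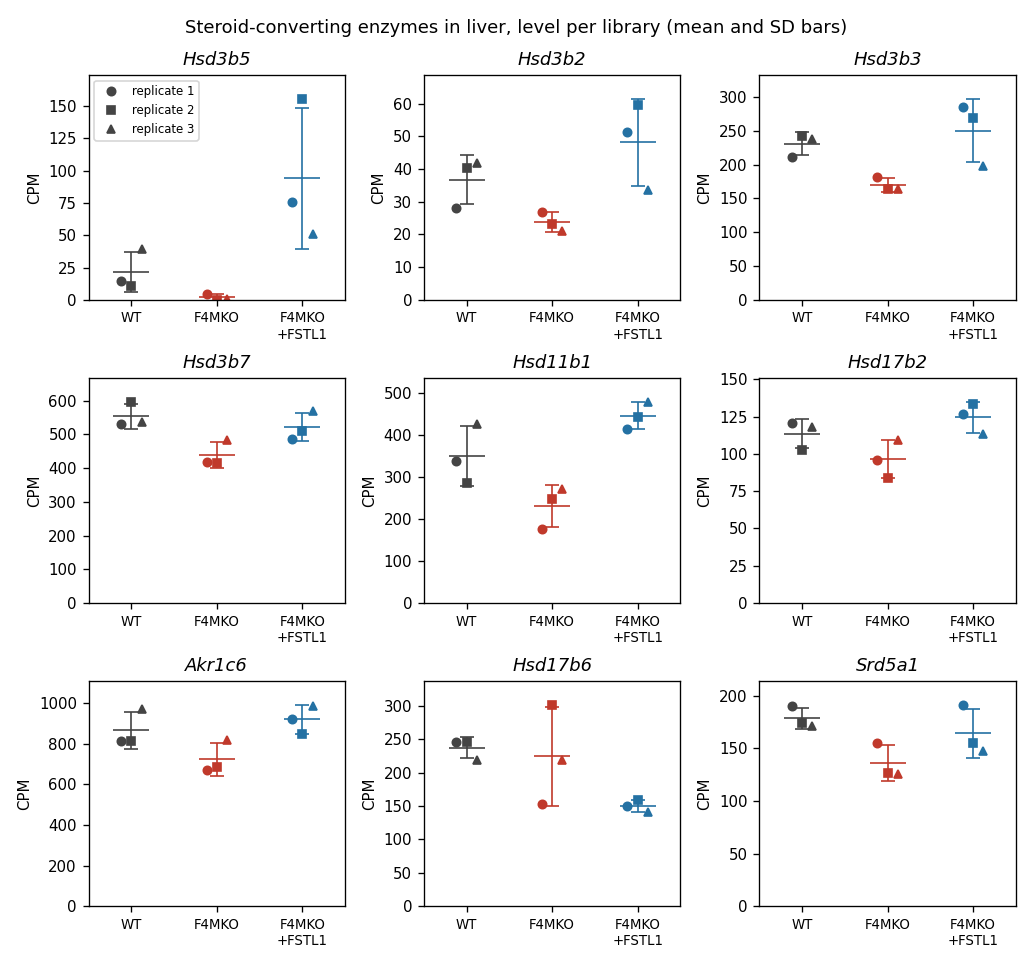
Level of each enzyme gene in CPM (y axis, from 0) in each library, by group (x axis). Symbols mark replicates 1 to 3 of a group, the long bar is the mean and the error bar the SD of 3 mice. For Hsd3b5, Hsd3b2, Hsd3b3, Hsd3b7 and Hsd11b1 every F4MKO library lies under every library of the other groups, while Hsd17b6 is lowest in F4MKO+FSTL1 by mean.

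The 3β-hydroxysteroid dehydrogenase family held the largest difference. Hsd3b5 encodes the enzyme of male mouse liver that acts mainly as a 3-ketosteroid reductase. Its level was 14.6, 10.9 and 39.5 CPM in the WT livers, 4.67, 0.126 and 0.599 CPM in the F4MKO livers, and 75.8, 155 and 50.8 CPM in the F4MKO+FSTL1 livers. The groups did not overlap in any of the comparisons, with all F4MKO livers lowest and all F4MKO+FSTL1 livers highest. The F4MKO values came from 132, 3 and 15 reads. The means were 21.7 ± 15.6, 1.80 ± 2.498 and 94.0 ± 54.7 CPM (SD, n = 3 each), so the spread was large in every group. On the log2 scale the difference of F4MKO from WT was -3.52 (SE 0.81), that of F4MKO+FSTL1 from F4MKO was 5.64 (SE 0.84) and that of F4MKO+FSTL1 from WT was 2.12 (SE 0.67). Its size depended on single libraries. Without F4MKO replicate 1 the first was -5.85 and the second 7.98, and without WT replicate 3 the first was -2.76 and the third 2.89.

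Hsd3b2, a dehydrogenase and isomerase that makes 4-ene-3-keto steroids, followed at a smaller scale. It had 28.2, 40.4 and 41.8 CPM in WT, 27.0, 23.3 and 21.0 CPM in F4MKO and 51.4, 59.6 and 33.6 CPM in F4MKO+FSTL1. The F4MKO libraries were again the lowest, although WT replicate 1 was only just above F4MKO replicate 1. The WT and F4MKO+FSTL1 libraries overlapped. F4MKO differed from WT by -0.63 (SE 0.20) and F4MKO+FSTL1 from F4MKO by 1.02 (SE 0.21), which is 2.03-fold higher. Hsd3b3, its relative in the cluster, had 211, 243 and 238 CPM in WT, 181, 164 and 164 CPM in F4MKO and 285, 269 and 197 CPM in F4MKO+FSTL1. All F4MKO libraries were below all others. The log2 difference was -0.44 (SE 0.14) in F4MKO from WT and 0.56 (SE 0.14) in F4MKO+FSTL1 from F4MKO, a 1.48-fold difference that lies just under the fold threshold of 1.5. Hsd3b2, at 2.03-fold, was the nearest member of this family above that threshold.

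Hsd3b7, the enzyme of bile acid synthesis that oxidizes the 3β-hydroxyl of 7α-hydroxylated sterols, was the most abundant of the family. It had 529, 595 and 536 CPM in WT, 419, 415 and 483 CPM in F4MKO and 486, 509 and 568 CPM in F4MKO+FSTL1. The F4MKO libraries were the lowest, the highest of them only just under the lowest F4MKO+FSTL1 library. The log2 difference was -0.33 (SE 0.11) in F4MKO from WT and 0.25 (SE 0.11) in F4MKO+FSTL1 from F4MKO. These counts need care, since 93.5% of the 150-base stretches of the Hsd3b7 transcript also occur in the overlapping annotated gene Gm49388, which was not analysed here. For Hsd3b2, Hsd3b3 and Hsd3b5 the shares found in another gene were 2.23%, 6.14% and 1.21%, in relatives of the same cluster. The shared stretches of Hsd3b5 occur in Hsd3b4 and in the annotated gene Gm10681, which was not analysed here. The relatives Hsd3b1, Hsd3b4 and Hsd3b6 had 0 to 9 reads in any library and were not tested. The 9 reads were of Hsd3b4 in F4MKO+FSTL1 replicate 2, where Hsd3b5 was also highest.

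Hsd11b1 regenerates active corticosterone from its inert 11-keto form in liver. Its level was 338, 286 and 426 CPM in WT, 176, 248 and 272 CPM in F4MKO and 415, 445 and 479 CPM in F4MKO+FSTL1. Every F4MKO library was below every library of both other groups, and WT replicate 3 was within the F4MKO+FSTL1 range. The means were 350 ± 71.2, 232 ± 49.7 and 446 ± 32.2 CPM (SD, n = 3 each). F4MKO differed from WT by -0.59 (SE 0.18) on the log2 scale, a 1.51-fold lower level, and F4MKO+FSTL1 from F4MKO by 0.94 (SE 0.18), a 1.92-fold higher level. The opposing enzyme, Hsd11b2, which inactivates corticosterone, had at most 1 read in any library.

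The 17β-hydroxysteroid dehydrogenases and the related Akr1c6 differed less or in another way. Akr1c6, the 17β-dehydrogenase of the aldo-keto reductase family in mouse liver, was the most abundant member. It had 815, 812 and 971 CPM in WT, 670, 684 and 818 CPM in F4MKO and 925, 849 and 988 CPM in F4MKO+FSTL1. WT and F4MKO overlapped through F4MKO replicate 3, and F4MKO+FSTL1 was above F4MKO in all libraries. The log2 differences were -0.26 (SE 0.13) and 0.35 (SE 0.13). Hsd17b2, which oxidizes estradiol and testosterone to their weaker ketones, had 120, 102 and 118 CPM in WT, 96.1, 84.1 and 109 CPM in F4MKO and 126, 134 and 113 CPM in F4MKO+FSTL1. WT and F4MKO overlapped, and F4MKO+FSTL1 lay above F4MKO. Its log2 differences were -0.23 (SE 0.12) and 0.37 (SE 0.12).

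Hsd17b6, an oxidative enzyme that converts 3α-androstanediol back to dihydrotestosterone, was the exception. It had 246, 246 and 219 CPM in WT, 153, 301 and 219 CPM in F4MKO and 150, 160 and 142 CPM in F4MKO+FSTL1. The F4MKO libraries spanned nearly the whole range, with a coefficient of variation of 33.0% against 6.66% in WT and 6.003% in F4MKO+FSTL1. All F4MKO+FSTL1 libraries were below all WT libraries. The log2 difference of F4MKO from WT was -0.08 (SE 0.19) and turned to 0.13 without F4MKO replicate 1. That of F4MKO+FSTL1 from F4MKO was -0.57 (SE 0.19), and it was -0.79 without F4MKO replicate 1 and -0.31 without F4MKO replicate 2. F4MKO+FSTL1 differed from WT by -0.66 (SE 0.19), a 1.57-fold lower level. Of the 150-base stretches of its transcript, 7.21% also occur in Rdh1 and Rdh16f1.

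Srd5a1, the 5α-reductase of liver, had 190, 174 and 172 CPM in WT, 155, 126 and 126 CPM in F4MKO and 191, 155 and 147 CPM in F4MKO+FSTL1. All F4MKO libraries were below all WT libraries, while F4MKO replicate 1 was within the F4MKO+FSTL1 range. The log2 difference was -0.39 (SE 0.13) in F4MKO from WT, 0.28 (SE 0.13) in F4MKO+FSTL1 from F4MKO and -0.12 (SE 0.13) in F4MKO+FSTL1 from WT. Of its 150-base stretches, 13.1% occur in the annotated gene Gm17108 as well.

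**Figure D2:**
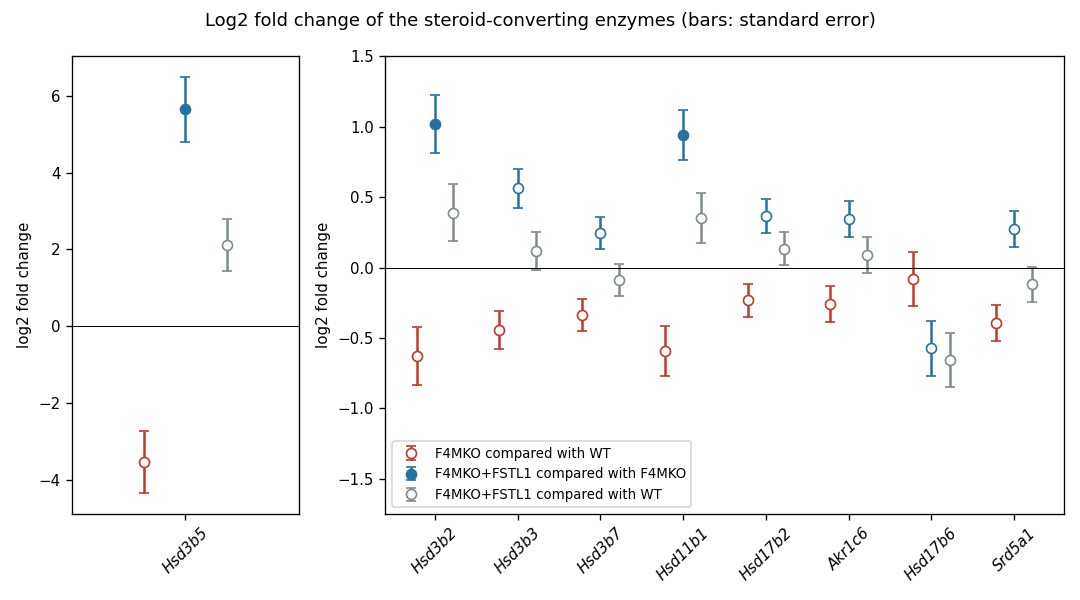
Log2 fold change (y axis, on a wider scale in the left panel for Hsd3b5) of the 9 enzyme genes in the 3 comparisons, with bars of 1 standard error. Red stands for F4MKO compared with WT, blue for F4MKO+FSTL1 compared with F4MKO and grey for F4MKO+FSTL1 compared with WT. Filled points passed an adjusted p under 0.05 and a fold change above 1.5 in the fit over all genes, which holds for Hsd3b5, Hsd3b2 and Hsd11b1 in F4MKO+FSTL1 compared with F4MKO.

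Of the 9 members, 6 were lower in F4MKO than in WT without overlap of the libraries, as were 10% of all genes, and 7 were higher in F4MKO+FSTL1 than in F4MKO, as were 18% of all genes (39% in either direction). Only Hsd17b6 and Srd5a1 overlapped in F4MKO+FSTL1 compared with F4MKO, and in F4MKO+FSTL1 compared with WT only Hsd3b5 was higher and Hsd17b6 lower without overlap, beside 7.44% and 10.7% of all genes. Leaving out each library in turn, Hsd3b2, Hsd3b5 and Hsd11b1 passed the threshold in F4MKO+FSTL1 compared with F4MKO in 9 of 9 fits. Hsd3b3 passed in 2 of 9 and Hsd17b6 in 1 of 9. The members were selected with this contrast known and the fits share most of their libraries. Some fits leave out a WT library, which is not part of the contrast. These counts therefore only describe the dependence on single libraries.

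Levels can be set side by side between genes only per length. Per kilobase of exonic length (RPKM), the order in the WT livers was Akr1c6 at 426, Hsd3b7 at 199.8, Hsd17b6 at 151, Hsd11b1 at 82.3, Srd5a1 at 61.4, Hsd17b2 at 59.0, Hsd3b3 at 36.1, Hsd3b5 at 13.98 and Hsd3b2 at 9.96. Srd5a1 and Hsd17b2, and Hsd3b5 and Hsd3b2, overlapped in their libraries, and the other neighbours did not. In F4MKO Hsd3b5 was last, at 1.16 RPKM, without overlap with Hsd3b2 above it. In F4MKO+FSTL1 it stood at rank 6, at 60.7 RPKM, overlapping its neighbours Hsd17b2 and Srd5a1. Hsd11b1 was above Hsd17b6 by mean in F4MKO+FSTL1 with overlapping libraries, and below it in WT and F4MKO. Exonic length counts the exons of all transcripts of a gene. With the length of the longest coding transcript, Hsd11b1 stood at rank 3 and Hsd3b3 at rank 5 in WT, at 216 and 151 RPKM, and Hsd3b5 at rank 8 in WT and in F4MKO+FSTL1 and at rank 9 in F4MKO.

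A further 40 genes for steroid-converting dehydrogenases and reductases were listed by function. Of these, 36 were in the table under the listed symbol and 28 were tested. In F4MKO compared with WT none passed the threshold by edgeR's quasi-likelihood test, the unadjusted p was under 0.05 for 8 and DESeq2 called 1 (Akr1c14), beside 0.271% of all genes by edgeR and 2.23% by DESeq2. Their median log2 fold change was -0.10. With FSTL1 added to F4MKO, 2 rose and 4 fell, beside 3.21% and 11.2% of all genes, and 22 did not pass. The median was 0.16. Between F4MKO+FSTL1 and WT none passed by edgeR, the unadjusted p was under 0.05 for 4 and DESeq2 called 0.

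Hsd17b10, a mitochondrial dehydrogenase that oxidizes steroids and branched fatty acyl-CoA and is a subunit of mitochondrial RNase P, rose the most of this list. It had 180, 168 and 162 CPM in WT, 96.6, 121 and 152 CPM in F4MKO and 261, 201 and 244 CPM in F4MKO+FSTL1. The log2 difference of F4MKO+FSTL1 from F4MKO was 0.93 (SE 0.16, adjusted p = 0.00313). Akr1c14, the 3α-hydroxysteroid dehydrogenase of liver, had 280, 266 and 302 CPM in WT, 168, 191 and 175 CPM in F4MKO and 224, 320 and 261 CPM in F4MKO+FSTL1. It rose by 0.59 (SE 0.13, adjusted p = 0.0101), just above the fold threshold. The call was lost, at 0.55, 0.58 and 0.45, without F4MKO replicate 1, F4MKO replicate 3 or F4MKO+FSTL1 replicate 2, and also at 0.58 with only the 6 libraries compared. With the replicate number as a block it was lost at 0.58 as well.

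Of those that fell, Akr1b7, an aldose reductase-like enzyme, was rare. It had 13, 14 and 16 reads in WT, 36, 58 and 20 reads in F4MKO and 10, 4 and 5 reads in F4MKO+FSTL1, a log2 difference of -2.25 (SE 0.47, adjusted p = 0.0076) between the last groups. Dhrs9, a short-chain dehydrogenase acting on retinol and 3α-hydroxysteroids, had 10.9, 6.56 and 3.91 CPM in WT, 17.65, 12.02 and 4.71 CPM in F4MKO and 3.46, 2.60 and 1.36 CPM in F4MKO+FSTL1 (log2 difference -2.20, SE 0.50, adjusted p = 0.0111). Cbr1, a carbonyl reductase of broad range, differed by -0.80 (SE 0.19, adjusted p = 0.0124). Rdh9, a retinol dehydrogenase that also acts on androgens, differed by -0.61 (SE 0.13, adjusted p = 0.00835). The call of Cbr1 was lost, at -0.57 and -0.74, without F4MKO replicate 2 or F4MKO+FSTL1 replicate 2. That of Rdh9 was lost without F4MKO+FSTL1 replicate 2, at -0.48. Without that library, 3 of the list passed in place of 6.

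The most abundant enzymes of the list that did not pass were Hsd17b13, a lipid droplet protein, at 731 CPM in F4MKO and 825 CPM in F4MKO+FSTL1 (log2 difference 0.17), the peroxisomal Hsd17b4 at 521 and 606 CPM (0.22), Hsd17b11 at 316 and 404 CPM (0.36), H6pd, which supplies NADPH to Hsd11b1, at 234 and 241 CPM (0.04), and Hsd17b12, of fatty acid elongation, at 153 and 177 CPM (0.22). All had adjusted p above 0.05, the lowest being 0.0512 for Hsd17b11. For H6pd the difference was smaller than its SE of 0.13, beside the difference of 0.94 in Hsd11b1.

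**Figure D3:**
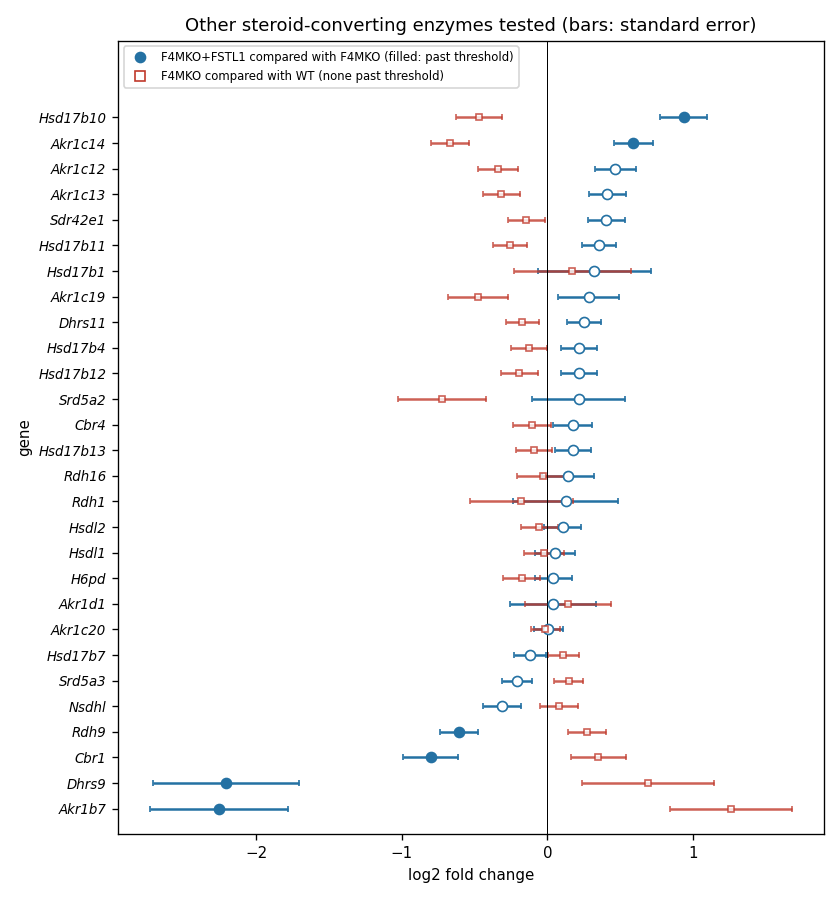
Log2 fold change (x axis) of the 28 tested steroid-converting enzymes outside the 9, in F4MKO+FSTL1 compared with F4MKO (blue circles, filled where past the threshold) and in F4MKO compared with WT (red squares), with bars of 1 standard error. Hsd17b10 and Akr1c14 are the filled circles above 0, and Rdh9, Cbr1, Dhrs9 and Akr1b7 are those below 0.

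Genes that act before and after these enzymes were counted in F4MKO+FSTL1 compared with F4MKO, with edgeR's quasi-likelihood test. In that comparison 3.21% of all genes were called as higher and 11.2% as lower, which is the background of each list. In F4MKO compared with WT none of the genes of these lists passed by that test. DESeq2 called none of the P450 genes and of the receptors and carriers, 2 of the conjugation genes and 1 each of the bile acid and glucocorticoid-responsive genes, and the unadjusted p of edgeR was under 0.05 for 4, 1, 8, 7 and 5 genes in that order. Of all genes, DESeq2 called 2.23% there, and 16.9% had an unadjusted p under 0.05 in edgeR. Cyp2a, Cyp3a, Ugt2b, Akr1c and Mup genes have close relatives whose reads the counting could have divided, so their values are less certain. Of these genes only Akr1c6 was searched for shared stretches, and 0% of its 150-base stretches occur in another gene. Among 12 tested steroid cytochromes P450, 2 rose and 3 fell. Cyp7b1, which hydroxylates oxysterols and neurosteroids at carbon 7, rose by 1.76 (SE 0.41, adjusted p = 0.0121), while Cyp2a4, a testosterone 15α-hydroxylase, fell by 3.61 (SE 0.80, adjusted p = 0.00976) and Cyp3a11, a major steroid hydroxylase, fell by 1.24 (SE 0.20, adjusted p = 0.0023). Without F4MKO replicate 2 the value of Cyp2a4 was -2.72, and without F4MKO+FSTL1 replicate 2 the call of Cyp7b1 was lost, at 1.55, and 2 of this list passed in place of 5. Among 17 genes of steroid conjugation and hydrolysis, 5 rose and none fell. The sulfotransferases Sult5a1 and Sult2a8 rose by 2.10 (SE 0.34, adjusted p = 0.00254) and 1.95 (SE 0.30, adjusted p = 0.00213), and the glucuronosyltransferase Ugt2b1 by 1.04 (SE 0.15, adjusted p = 0.00171).

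Among 15 genes of bile acid synthesis, 4 rose and 1 fell. They include Cyp7b1 and Akr1c14, counted above, and the acyl-CoA synthetases Slc27a2 and Slc27a5, which rose by 0.75 (SE 0.15, adjusted p = 0.00552) and 0.60 (SE 0.16, adjusted p = 0.0194). The call of Slc27a5 was lost without F4MKO replicate 1 (0.43), F4MKO+FSTL1 replicate 1 (0.57) or F4MKO+FSTL1 replicate 2 (0.60). Without F4MKO+FSTL1 replicate 2, 1 gene of this list passed. Of 13 steroid receptors and carriers, 1 passed, the nuclear receptor Nr1i3 (CAR), which rose by 0.85 (SE 0.23, adjusted p = 0.0221). It did not pass without F4MKO replicate 1, F4MKO replicate 2 or F4MKO+FSTL1 replicate 3, at 0.76, 0.85 and 0.76. The glucocorticoid receptor Nr3c1 had a difference of 0.21, which did not pass.

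Of 18 tested genes known to respond to glucocorticoid, none rose and 5 fell in F4MKO+FSTL1 compared with F4MKO, beside 3.21% and 11.2% of all genes. Hsd11b1 was higher in this comparison, and a link between them was not tested. The largest were the cell cycle inhibitor Cdkn1a at -2.42 (SE 0.37, adjusted p = 0.00199), the stress gene Gadd45b at -1.53 (SE 0.30, adjusted p = 0.0054) and the iron-binding Lcn2 at -1.46 (SE 0.32, adjusted p = 0.00922). These respond to stress and inflammation too. Fkbp5, a widely used glucocorticoid target and 1 of the 13 genes that did not pass, had a difference of -0.06. It was named after its value was seen, so nothing is read from it.

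Hsd3b5 is known as a gene of male liver, so other genes with a sex bias in liver were counted. These lists were chosen with earlier results of these data known, so their counts are a description. Cyp7b1, counted above, is also among the male-biased genes. Among 15 tested male-biased genes, 8 rose and none fell in F4MKO+FSTL1 compared with F4MKO, all 15 had a log2 fold change above 0, and the median was 1.26. Of all genes, 3.21% were called as higher and 51.4% were above 0. The major urinary proteins Mup7 and Mup21 rose by 5.002 (SE 0.95, adjusted p = 0.00491) and 2.21 (SE 0.41, adjusted p = 0.00458), and Susd4 by 2.07 (SE 0.56, adjusted p = 0.0234). The value of Mup7 was 5.62 without F4MKO replicate 3. Susd4 did not pass without F4MKO replicate 1 (1.91), F4MKO replicate 2 (1.80), F4MKO+FSTL1 replicate 2 (2.19) or F4MKO+FSTL1 replicate 3 (1.80), and without F4MKO+FSTL1 replicate 2 the list had 5 calls in place of 8. Mup7 had 1264, 649.8 and 1882 CPM in WT, 191, 6.78 and 259 CPM in F4MKO and 3634, 5787 and 5217 CPM in F4MKO+FSTL1. Its lowest library, F4MKO replicate 2, was also the lowest for Hsd3b5, and its highest, F4MKO+FSTL1 replicate 2, was also the highest.

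When F4MKO was compared with WT, the same 15 male-biased genes were all below 0, with a median of -0.86, where 49.4% of all genes were above 0. Without WT replicate 3 Susd4 turned from -0.79 to 0.20, and with each of the other libraries left out no gene of the list changed direction. None passed by edgeR's quasi-likelihood test, the unadjusted p was under 0.05 for 10 (16.9% of all genes) and DESeq2 called 4 (2.23% of all genes). Among 11 tested female-biased genes, 5 fell and none rose in F4MKO+FSTL1 compared with F4MKO, with a median of -1.81. Of all genes, 11.2% were called as lower there. Atp6v0d2, a proton pump subunit, had a difference of -2.19 (SE 0.36, adjusted p = 0.00277), the cytochrome P450 Cyp3a41b of -2.05 (SE 0.45, adjusted p = 0.00928) and Prom1, also known from bile duct progenitors, of -1.90 (SE 0.38, adjusted p = 0.00625). Their mean levels were low, between 0.265 and 7.76 CPM. In F4MKO compared with WT, 10 of these 11 were above 0 (9 to 11 with a library left out), none passed by edgeR's quasi-likelihood test, 4 had an unadjusted p under 0.05 and DESeq2 called 2.

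**Figure D4:**
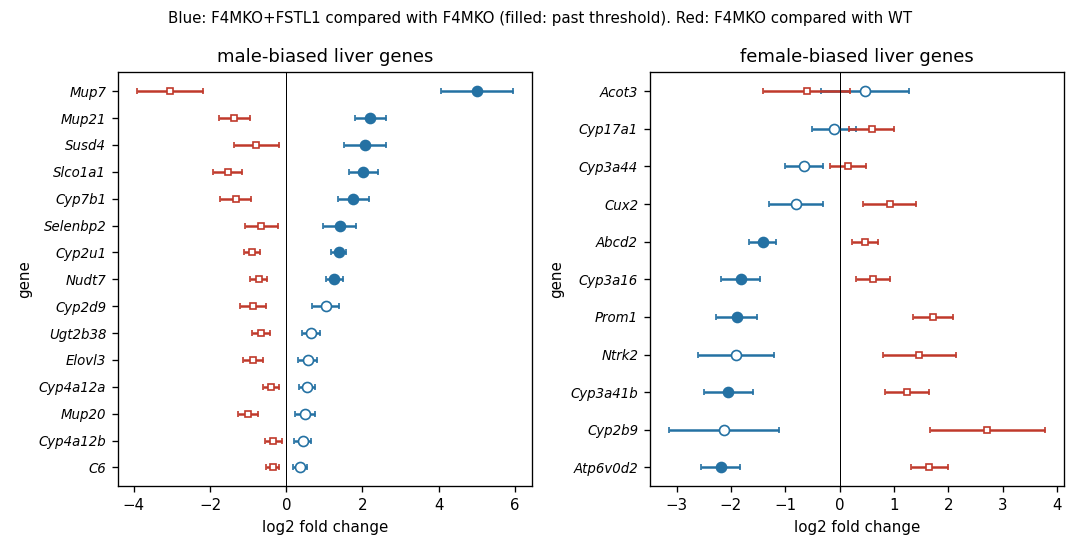
Log2 fold change (x axis) of tested male-biased (left) and female-biased (right) liver genes in F4MKO+FSTL1 compared with F4MKO (blue circles, filled where past the threshold) and in F4MKO compared with WT (red squares), with bars of 1 standard error. With all libraries, the 15 male-biased genes have circles above 0 and squares below 0. The 2 differences share the F4MKO libraries.

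The genes most like the members in pattern were found by Pearson's r of log2 CPM over the 9 libraries, which share the same 3 groups, and are given as a description. Against the mean of the 9 members' standardized values, they were the fructose transporter Slc2a5 (0.98), the transcription factor gene Cebpe (0.97), Mrpl49 of the mitochondrial ribosome (0.96), Gm39776 (0.96), the organic anion transporter Slc22a28 (0.95) and the growth hormone receptor Ghr (0.95). Slc2a5 and Gm39776 were rare, so their r rests on few reads. Slc2a5 had a mean of 0.999 CPM in WT, 0.191 CPM in F4MKO and 1.07 CPM in F4MKO+FSTL1. For Gm39776 the means were 0.637, 0.233 and 0.659 CPM in that order. Ghr had a mean of 408 CPM in WT, 303 CPM in F4MKO and 469.5 CPM in F4MKO+FSTL1. Against Hsd3b5 alone, they were the phosphate and urate transporter Slc17a3 (0.99), the natriuretic peptide receptor Npr2 (0.97), Ttbk1 (0.96) and the lectin Clec2h (0.96). Ttbk1 was rare as well, with means of 1.45 CPM in WT, 0.969 CPM in F4MKO and 1.99 CPM in F4MKO+FSTL1. Clec2h had means of 4.61, 1.22 and 9.72 CPM in that order.

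Markers of some other cell types differed between F4MKO+FSTL1 and F4MKO, where 3.21% of all genes were called as higher and 11.2% as lower. In bulk tissue, fewer cells of a type and less RNA per cell cannot be told apart. Of 7 tested cholangiocyte markers, 5 fell in F4MKO+FSTL1 compared with F4MKO, and their summed level was 70.0 to 108 CPM in WT, 182 to 459.6 CPM in F4MKO and 54.3 to 70.1 CPM in F4MKO+FSTL1, most of it from Spp1. The highest of these sums was that of F4MKO replicate 1. From WT to F4MKO 2 of them rose, where 0.202% of all genes were called as higher. Of 10 stellate cell and fibroblast markers, led by Dcn and Col3a1, 7 fell, with 433 to 509 CPM in WT, 587 to 773 CPM in F4MKO, highest in replicate 1, and 279 to 387 CPM in F4MKO+FSTL1. Of 10 macrophage markers, led by Cd5l and Clec4f, 6 fell, with 432 to 698 CPM, 458 to 563 CPM and 252 to 403 CPM. Between F4MKO and WT edgeR called 0 of the stellate cell and 0 of the macrophage markers, DESeq2 called 4 and 1, and the unadjusted p was under 0.05 for 5 and 4. Of all genes, DESeq2 called 2.23% there, and 16.9% had an unadjusted p under 0.05 in edgeR. Among 10 endothelial markers (Eng and Stab2 highest) and 7 lymphocyte markers (Cd79a and Nkg7 highest), edgeR called 0 of each in F4MKO+FSTL1 compared with F4MKO and so did DESeq2, with an unadjusted p under 0.05 in 2 and 1.

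Hepatocyte markers were counted in the same comparison, beside 3.21% of all genes called as higher and 11.2% as lower. Of 11 hepatocyte markers, led by Alb and Apoa1, 2 rose, and their summed level was 116025 to 123496 CPM in WT, 87702, 119461 and 119275 CPM in F4MKO replicates 1 to 3 and 107688 to 124405 CPM in F4MKO+FSTL1. Of 10 pericentral hepatocyte markers, led by Cyp2e1 and Glul, 3 rose, with 9013 to 9745 CPM in WT, 6297 to 8941 CPM in F4MKO and 13514 to 16443 CPM in F4MKO+FSTL1. Of 10 periportal markers, led by Pck1 and Ass1, 1 rose and 1 fell, with 8106 to 10163 CPM, 6277 to 9943 CPM (lowest in F4MKO replicate 1) and 8969 to 10637 CPM. The part of these markers in the levels of the steroid-converting enzymes was not tested. Of 10 markers of adrenal, testis and other steroid-making cells, 7 were in the table and 2 were tested, Cyp17a1 and Star, with no call by edgeR or DESeq2 and no unadjusted p under 0.05 in this comparison. Of 8 skeletal muscle markers 1 was tested, Mylpf, at a mean of at most 1.34 CPM in any group.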

How the data were processed

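Liver RNA of 3 mice per group was sequenced as paired 150-base reads. By the submitters' processing notes the authors trimmed reads with Trim Galore 0.6.7, mapped them to mm10 with HISAT2 2.2.1 and counted them on genes with featureCounts 2.0.1. The deposited values are raw counts per gene and library. The annotation, the use of strand and the treatment of shared reads are not given in the sources used here, so overlapping and near-identical genes are uncertain.

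Counts were fitted in R 4.3.3 with edgeR 4.0.16 (quasi-likelihood, TMM, all 9 libraries in a single fit with a mean per group). filterByExpr with a minimum count of 10 and total of 15 kept 14379 of 24008 genes. A call was a Benjamini-Hochberg adjusted p under 0.05 over all genes tested and a fold change above 1.5. Log2 CPM used a prior count of 2. Alternatives were DESeq2 1.42.0, its size factors in edgeR, no filter, only the 6 libraries compared, a replicate block, no fold-change threshold and each library left out. Checked on simulated data for F4MKO+FSTL1 compared with F4MKO (14193 genes tested, 197 changed), the fit recovered 79.8% of 2-fold and 94.9% of 4-fold changes and called 10 of 13996 unchanged genes.

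The 9 members and all lists were chosen with earlier results of these data known. Named genes are the members, called enzymes of the further list with its 5 most abundant uncalled ones, at most 3 called genes of each context list with the largest change, the 2 most abundant markers per cell type (some items are not reported here) and the 6 and 4 genes most alike in pattern. Nr3c1, Fkbp5, Hsd11b2, the Hsd3b relatives with few reads and the Y-linked genes were named after their values were seen. Gene positions, exonic lengths and shared 150-base stretches came from GENCODE vM21, and promoters from RefSeq. Counts of the context lists and of their named genes under the alternatives, the direction of the sex-biased genes without each library, and the longest coding transcript as length, were added after seeing the data. The p-values rest on 3 mice per group.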

Additional observations from a re-analysis of the deposited data

How the results depend on the processing

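Over 378 values of the members' log2 fold changes under other settings, the direction changed in 1, that of Hsd17b6 in F4MKO compared with WT without F4MKO replicate 1 (0.13 in place of -0.08), and 2 moved by over the spread between mice, both of Hsd3b5 without F4MKO replicate 1 (-5.85 and 7.98). In F4MKO compared with WT, 39 genes were called in all. There were 338 with DESeq2, 478 with no filter on low counts, 11 with only the 6 libraries compared and 0 to 100 with each library left out. Of the members, 0 were called, but 2 with DESeq2 (Hsd3b5, Hsd11b1) and 3 with no filter (Hsd3b2, Hsd3b5, Hsd11b1), and of the further enzymes 0, but 1 (Akr1c14) with either. In F4MKO+FSTL1 compared with F4MKO, 2070 genes were called, 1295 to 2216 with a library left out, of which 1295 without F4MKO+FSTL1 replicate 2 and 1335 without F4MKO replicate 1. Called members were 3, but 5 with no fold-change threshold and 3 to 5 with a library left out (5 without F4MKO replicate 1), and called further enzymes were 6, and 3 to 6 with a library left out. In F4MKO+FSTL1 compared with WT, 1 gene was called, 284 with DESeq2, 2 with DESeq2's size factors in edgeR, 379 with no filter, 0 with only the 6 libraries compared and 0 to 101 with a library left out. Called members were 0, but 1 with DESeq2 (Hsd17b6) and 2 with no filter (Hsd3b5, Hsd17b6), and called further enzymes were 0, but 1 with no filter (Dhrs9). The cause of these shifts was not tested. Reads were few for Hsd3b5 in F4MKO, which limits the precision of its fold changes.

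Replicate numbers are shared by the groups but name different mice, so by design they were not taken to pair the libraries. After subtracting group means, libraries with the same number correlated at 0.08, 0.04 and 0.17 (F4MKO and WT), 0.11, 0.09 and 0.30 (F4MKO+FSTL1 and F4MKO) and 0.00, -0.10 and 0.21 (F4MKO+FSTL1 and WT). Libraries with different numbers correlated at -0.14 to 0.05, -0.19 to 0.08 and -0.15 to 0.17 in that order. With the number as a block, 134 genes were called in F4MKO compared with WT and 15 in F4MKO+FSTL1 compared with WT, with 1 of the further enzymes in each (Akr1c14 and Dhrs9), where there were 0 without the block. In F4MKO+FSTL1 compared with F4MKO the block gave 2170 genes, 3 members and 5 further enzymes, the lost one being Akr1c14. Each library correlated best with its own number between F4MKO+FSTL1 and F4MKO, and not every library did so between the other groups. This is a hint from the data and not from the design.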
